A study of Mus musculus with 36 samples.

Results

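C2C12 myotubes at 144 h of differentiation were compared with C2C12 myotubes at 96 h. The comparison took the 3 arrays labelled 144 h and the 3 labelled 96 h, which are 6 of the 36 arrays of the series. It started from every probe of the deposited raw table, of which 29812 passed an intensity filter and were tested. The model was fitted to all 36 arrays. C2C12 is an established line of mouse myoblasts. The cells were grown in DMEM with 20% fetal bovine serum, in which the 0 h cultures were taken, and all later cultures were switched to DMEM with 2% horse serum. Both groups had been in this low-serum medium, for 144 h in one and for 96 h in the other, and differed in no other labelled respect. The series holds 12 times from 0 h to 144 h with 3 replicates each, taken from separate plates of successive passages per the series' design text. The cells were lysed whole, so a culture can hold unfused cells beside its myotubes. Arrays at 48 h, 96 h and 144 h that carry 1 replicate number lay on 1 chip. The replicate number was therefore used as a block, and among the arrays at these times chip and replicate number cannot be told apart. The question is what still changed once the main axis of variation across the series had levelled off.

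Myoblasts that are deprived of serum leave the cell cycle, fuse and assemble sarcomeres. Contractile proteins are then exchanged in stages, with embryonic and neonatal myosins preceding adult fast and slow forms. The acetylcholine receptor of the muscle membrane exchanges its gamma subunit for an epsilon subunit as the neuromuscular junction matures.

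All 16 measured markers of muscle fibres were higher at 144 h than at 0 h, and all 16 were higher at 96 h than at 0 h, by limma at an adjusted p below 0.05. On the log2 intensity scale, the 4 measured adipocyte markers lay between 7.03 and 8.09 at 144 h and between 7.02 and 8.21 at 96 h. The 3 endothelial markers lay between 6.99 and 7.35 at 144 h and between 6.83 and 7.24 at 96 h, near or below the median of all tested probes, 7.62 at both times. The 3 neural markers lay between 6.85 and 8.30 at 144 h and between 6.80 and 8.63 at 96 h, and the 1 measured macrophage marker was at 6.99 at 144 h and 6.90 at 96 h. The 7 measured fibroblast markers reached higher levels, between 7.37 and 13.7 at 144 h and between 7.20 and 13.4 at 96 h. Of these, 4 were higher at 144 h and 2 at 96 h than at 0 h, and none passed the test between 144 h and 96 h. Their part in the results was not tested. The median raw intensity of an array was between 185 and 253 over these 6 arrays. Each tested probe has a measured level on each array, and the number of arrays limits the precision.

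The score on the first principal component, which held 48.1% of the variance over 36 arrays, averaged 64.9 ± 7.38 at 144 h and 64.9 ± 8.50 at 96 h (SD, n = 3 each). The paired differences, 144 h minus 96 h, were -14.0, 2.68 and 11.3 in replicates 1, 2 and 3 (two-sided exact permutation test over pairs, p = 1, with 0.25 the smallest p that 3 pairs allow). On the second component the 144 h array stood above its 96 h partner by 27.4, 11.4 and 9.50, and on the third by 39.9, 14.8 and 3.05, with an exact p of 0.25 for each. In all, 6 components were examined. The pairs agreed in sign on components 2 and 3 and disagreed on components 1, 4, 5 and 6. In replicates 1, 2 and 3 the differences were -2.35, 9.24 and 9.98 on component 4. They were 11.3, -2.27 and -5.41 on component 5, and -4.96, 6.78 and 13.6 on component 6. With 0.25 the smallest possible p, 3 pairs cannot tell agreement in sign from chance.

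Fewer probes passed the test than in the preceding step. Of 29812 tested probes, 197 (0.661%) differed between 144 h and 96 h at an adjusted p below 0.05 (limma with the replicate block, Benjamini-Hochberg over all tested probes). At an unadjusted p below 0.05 there were 3328 (11.2%). Of the 197, 90 (0.302%) were higher and 107 (0.359%) were lower at 144 h. They stand for 63 higher genes (0.475% of 13254 genes tested) and 80 lower genes (0.604%), and 34 of the 197 probes had no gene named here. A change of at least 2-fold was seen at 31 of the called probes (0.104% of those tested), 12 higher and 19 lower. The difference was of the same sign in all 3 pairs at each of the 197 probes, against 31.2% of all tested probes, and the 144 h and 96 h arrays did not overlap at 144 of them, against 9.57% of all tested probes. The preceding step of equal length, 96 h against 48 h, gave 2065 probes (6.93%), 1054 higher and 1011 lower, of which 251 changed at least 2-fold. The plot of differences by level shows both steps on 1 scale.

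**Figure D1:**
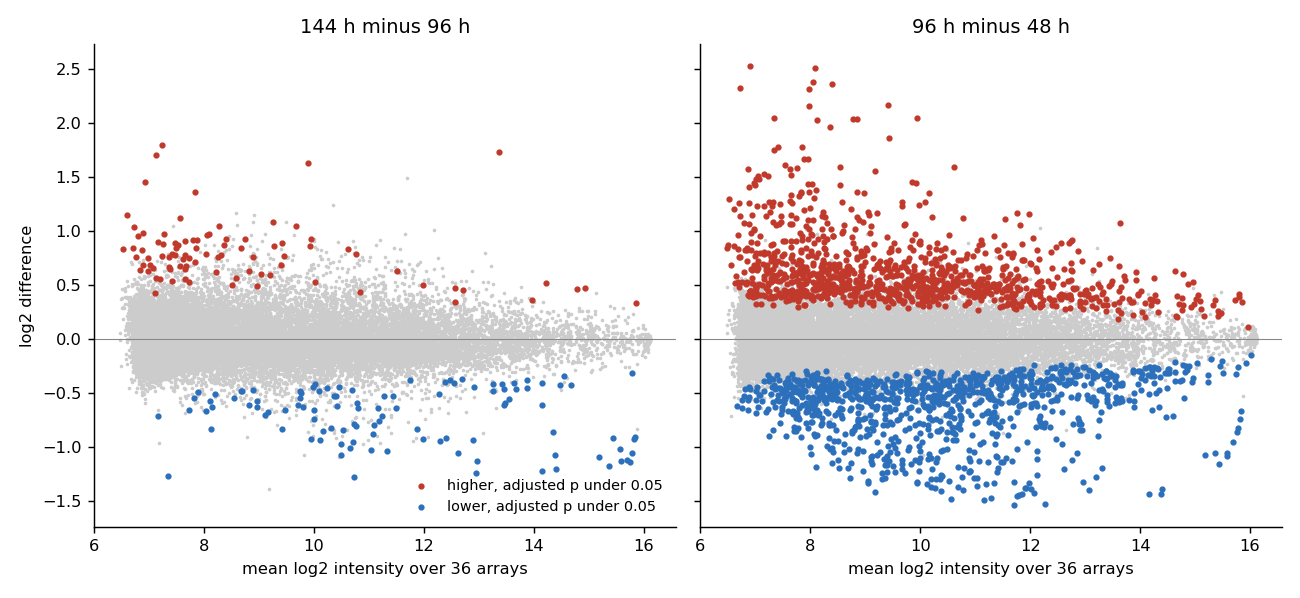
Log2 difference of each tested probe against its mean log2 intensity over 36 arrays, for 144 h minus 96 h (left) and 96 h minus 48 h (right); red and blue points are higher and lower at an adjusted p below 0.05. The left panel holds 90 red and 107 blue points and the right panel 1054 and 1011, with 94 of the blue points of the left panel among the 9937 probes of highest intensity.

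The intervals limit how large an undetected change can be. The 95% confidence interval of the log2 difference lay within 1 of 0 for 29235 probes (98.1%) and within 0.5 of 0 for 23247 probes (78.0%). How many falls passed the test depended on the scaling, and no called probe changed sign. With median scaling in place of quantile normalization 118 probes passed, 101 higher and 17 lower, and the median of all tested probes moved to 0.06, from -0.01 with quantile normalization. The authors' normalized table gave 351 probes, 220 higher and 131 lower, and the fit with no replicate block 36, 27 higher and 9 lower.

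Myh2, Myl2 and Tpm3, genes of the contractile apparatus, rose. Myh2, which encodes the myosin heavy chain of fast oxidative fibres, had log2 levels of 9.80, 9.93 and 9.89 at 144 h in replicates 1, 2 and 3, against 8.68, 7.75 and 7.79 at 96 h. The groups did not overlap, and the 144 h arrays lay within a narrow range while the replicate 1 array stood above its group at 96 h. The rise was 1.80 on the log2 scale (SE 0.16), or 3.49-fold (limma, adjusted p = 4.9e-08). In the authors' normalized table the rise was 0.95, so its size depended on the processing. Myl2, the regulatory light chain of slow muscle and heart, had 12.94, 13.77 and 13.39 at 144 h, against 11.81, 12.84 and 12.32 at 96 h. Its pairs differed by 1.13, 0.93 and 1.07, a mean rise of 1.04 (SE 0.19, 2.06-fold, limma adjusted p = 0.0051). In bulk samples, fewer cells of a type and less RNA per cell cannot be told apart.

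Tpm3, a tropomyosin gene with slow-muscle and non-muscle transcripts, was read by 5 probes that disagreed. The probe with the largest change had log2 levels of 14.14, 13.80 and 13.51 at 144 h, against 13.47, 12.65 and 12.67 at 96 h, and rose by 0.89 (SE 0.14, limma adjusted p = 0.00068). A second probe rose by 0.83 (limma adjusted p = 0.0036), and the other 3 probes had differences between -0.26 and -0.17 and did not pass. The 2 probes that rose also stood 5.88 and 4.87 log2 units higher at 144 h than at 0 h.

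Of the 28 measured genes of sarcomeric proteins, these 3 rose, none fell and 25 did not pass, while 0.475% of all genes rose. The median difference of the list was 0.07, against -0.02 over all 13254 genes, and lay between -0.04 and 0.24 with arrays or replicates left out. Myh1, the fast myosin of glycolytic fibres, had a difference of 0.66 (limma adjusted p = 0.43), with pairs of 0.53, 0.25 and 1.20. Mybpc1, the slow form of myosin-binding protein C, had one of 0.60 at its brighter probe (limma adjusted p = 0.15). Myh8, the perinatal myosin, had -0.05. Acta1 (skeletal actin), Actc1 (cardiac actin) and Tnnc1 (slow troponin C) stood at 16.1 log2 units at both times, at the top of the intensity range, where a further rise could not be read.

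**Figure D2:**
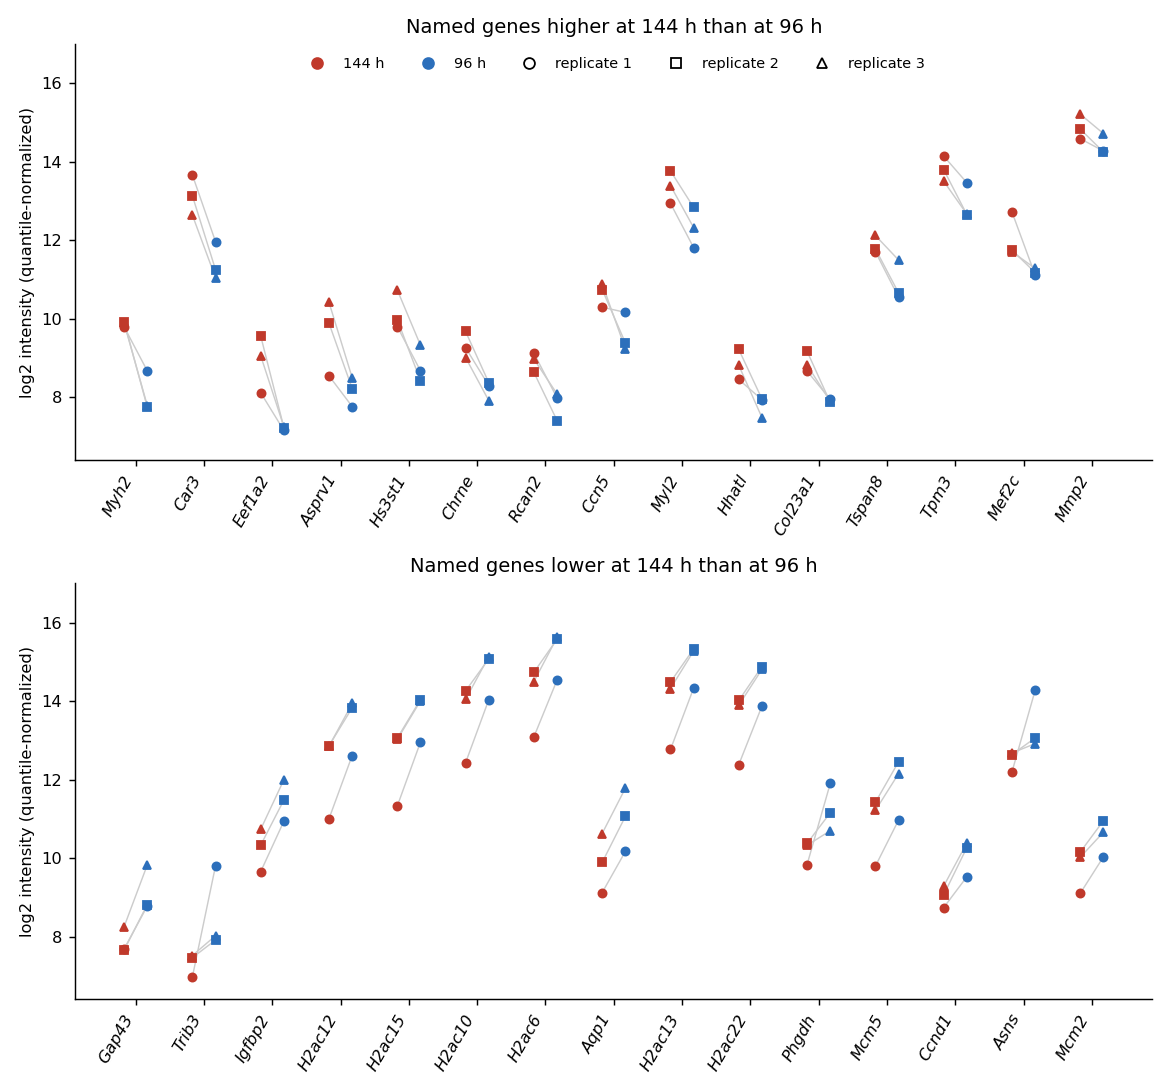
Quantile-normalized log2 intensity of the 15 named genes that rose (top) and the 15 that fell (bottom), 1 probe each, with 144 h arrays in red left of 96 h arrays in blue and a line joining the 2 arrays of a replicate. Every line of the top panel slopes down to the right and every line of the bottom panel slopes up, and Trib3, Asns and Phgdh have their longest line in replicate 1.

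Among 12 genes of the neuromuscular junction, Chrne rose, none fell and 11 did not pass, against 0.475% of all genes higher. The list median was 0.23, against -0.02 over all genes, and lay between 0.12 and 0.27 with arrays or replicates left out. Chrne encodes the epsilon subunit of the adult acetylcholine receptor. It had log2 levels of 9.27, 9.68 and 9.02 at 144 h, against 8.30, 8.37 and 7.92 at 96 h, with no overlap. The rise was 1.12 (SE 0.17), or 2.18-fold (limma adjusted p = 0.0006), and 0.57 in the authors' normalized table. Chrng, the gamma subunit of the fetal receptor, had differences of 0.28 and 0.26 at its 2 probes (limma adjusted p = 0.47 and 0.58). The promoter window of Chrne is shown because its gene rose most among those of the junction, with the E-box CAGCTG, a binding site of myogenic factors, in capitals. It comes from the RefSeq table for GRCm38.p6, chr11:70619145-70619444, minus strand, and runs from 250 bases before the transcription start to 50 after it.
Chrne: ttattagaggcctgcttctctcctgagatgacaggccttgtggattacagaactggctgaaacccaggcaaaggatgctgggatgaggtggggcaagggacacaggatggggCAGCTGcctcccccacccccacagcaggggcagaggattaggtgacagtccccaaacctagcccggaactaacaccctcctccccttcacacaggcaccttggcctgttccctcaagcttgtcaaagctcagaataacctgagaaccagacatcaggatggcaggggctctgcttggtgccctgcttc
The match begins at position -138 relative to the start. CAGCTG, which reads the same on both strands, was found in 18.3% of all genes with a promoter in that table, in 13 of 49 genes that rose (26.5%) and in 16 of 68 that fell (23.5%). Eef1a2, Myl2 and Tpm3 also held it, and Myh2 did not.

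Other named genes that rose serve protein synthesis, gas and calcium handling, and the cell surface. Eef1a2, the translation elongation factor of muscle and neurons, had log2 levels of 8.12, 9.57 and 9.06 at 144 h, against 7.16, 7.23 and 7.25 at 96 h. It rose by 1.70 (SE 0.21, limma adjusted p = 3.1e-05), least in replicate 1. The 96 h arrays were below the median of all tested probes, so no fold is read from them. Car3, the cytosolic carbonic anhydrase of slow muscle and fat, had 13.67, 13.14 and 12.64 at 144 h, against 11.96, 11.25 and 11.04 at 96 h. It rose by 1.73 (SE 0.14, 3.32-fold, limma adjusted p = 2.1e-08), with a second probe at 1.63. Car3 was still 1.23 log2 units lower at 144 h than at 0 h, so its rise regained part of an earlier fall. Hs3st1, a heparan sulfate sulfotransferase, rose by 1.36 and Asprv1, an aspartic protease known from skin, by 1.46 (limma adjusted p = 4.4e-07 and 0.0059). Rcan2, a regulator of calcineurin, rose by 1.09 and Hhatl, a muscle protein related to hedgehog acyltransferase, by 1.04 (limma adjusted p = 0.00024 and 0.0076). Col23a1, a transmembrane collagen, rose by 0.98, Tspan8, a tetraspanin, by 0.97 and Ccn5, a secreted CCN family protein, by 1.05, the last with 0.13 in replicate 1 against 1.36 and 1.66 in the others.

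Among the 13 measured myogenic regulators, Mef2c rose and 12 did not pass, against 0.475% of all genes higher. The list median was 0.22, against -0.02 over all genes. Mef2c, a transcription factor of muscle genes, had log2 levels of 12.72, 11.75 and 11.71 at 144 h, against 11.11, 11.18 and 11.28 at 96 h. It rose by 0.87 (SE 0.17, limma adjusted p = 0.01), by 1.61 in replicate 1 and by 0.57 and 0.43 in the others, and 2 other Mef2c probes did not pass. Without replicate 1 its adjusted p was 0.38. Myog had a difference of -0.12 (limma adjusted p = 0.91) and Myf6 one of 0.61 (limma adjusted p = 0.26).

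Except for Igfbp2, which is among the 12 largest falls, the genes that follow here were chosen for mention after their values were seen. Rpl3l, a ribosomal protein of striated muscle, rose by 0.87, Ampd1, the muscle AMP deaminase, by 0.92, and Cacna2d2, a calcium channel subunit, by 0.78. Igf1, a growth factor that acts on muscle, had 10.11, 10.27 and 10.42 at 144 h, against 9.48, 9.13 and 9.61 at 96 h, and rose by 0.86 (SE 0.15, limma adjusted p = 0.0024). Igfbp2, which binds insulin-like growth factors, had 9.65, 10.33 and 10.73 at 144 h, against 10.94, 11.48 and 12.00 at 96 h. It fell by 1.23 (SE 0.16, 2.35-fold lower, limma adjusted p = 8.1e-05), by nearly the same amount in each pair. Hsd11b1, which reactivates glucocorticoids, rose by 0.69 and 0.56 at 2 probes. The secreted or lipid-binding proteins Cp (ceruloplasmin), Apoe and Clu rose by 0.93, 0.88 and 0.82.

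Ccnd1, Mcm5 and Mcm2, genes of cell proliferation, fell. Ccnd1, which encodes cyclin D1, had log2 levels of 8.74, 9.06 and 9.29 at 144 h, against 9.53, 10.27 and 10.39 at 96 h at its most changed probe. The groups did not overlap and the fall was 1.03 on the log2 scale (SE 0.15), with a level 2.04-fold lower at 144 h (limma adjusted p = 0.00022). It passed at 3 of its 5 probes, and the other 2 had differences of -0.47 and -0.51. Ccnd2, cyclin D2, fell by 0.63, Cdk2 by 0.48 and Cdk4 by 0.38, the last with a limma adjusted p just below 0.05. Ccnd2, Cdk2 and Cdk4 were chosen after their values were seen. With median scaling none of them passed (limma adjusted p = 0.44, 0.41 and 0.48).

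Mcm5, a subunit of the replicative helicase, had 9.79, 11.42 and 11.21 at 144 h, against 10.97, 12.45 and 12.15 at 96 h. The groups overlapped, since both replicate 1 arrays were lower than the rest, but the pairs fell by 1.18, 1.03 and 0.94 (limma adjusted p = 0.033). Mcm2, another subunit, had 9.10, 10.15 and 10.02 at 144 h, against 10.03, 10.95 and 10.66 at 96 h, and fell by 0.79 (limma adjusted p = 0.026). Of the 16 measured cell cycle genes, Ccnd1, Mcm2 and Mcm5 fell, none rose and 13 did not pass, against 0.604% of all genes lower. The list median was -0.34, against -0.02 over all genes, and was -0.40, -0.27 and -0.58 in pairs 1, 2 and 3. Aurkb and Plk1, kinases of mitosis, had differences of -0.90 and, at the brighter of 2 probes, -0.84 (limma adjusted p = 0.098 and 0.11). Cdkn1a, the inhibitor that holds myotubes out of the cycle, had 0.14 and 0.02 at its 2 probes and stood near the top of the range at both times.

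Other proliferation genes were chosen after their values were seen. Tk1, the thymidine kinase of S phase, fell by 1.02, Gins2, a replication factor, by 0.82 and Chaf1a, a histone chaperone of replication, by 0.74 (limma adjusted p = 0.035, 0.033 and 0.03). The mitotic genes Troap, Kif2c and Cdca8 fell by 0.92, 0.88 and 0.92, least in replicate 2. None of these genes, from Tk1 to Cdca8, passed with median scaling (limma adjusted p between 0.15 and 0.25). In the authors' normalized table Cdca8 passed at this probe (limma adjusted p = 0.034) and the others did not (between 0.067 and 0.1). With median scaling Ccnd1 passed, and Mcm2 and Mcm5 did not (limma adjusted p = 0.022, against 0.16 for Mcm2 and 0.095 for Mcm5), with differences of -0.84, -0.60 and -0.92. The promoter of Mcm5 is shown because its gene fell most in the cell cycle list, with the E2F-type motif TTTNGCGC in capitals. It comes from RefSeq, GRCm38.p6, chr8:75109259-75109558, plus strand.
Mcm5: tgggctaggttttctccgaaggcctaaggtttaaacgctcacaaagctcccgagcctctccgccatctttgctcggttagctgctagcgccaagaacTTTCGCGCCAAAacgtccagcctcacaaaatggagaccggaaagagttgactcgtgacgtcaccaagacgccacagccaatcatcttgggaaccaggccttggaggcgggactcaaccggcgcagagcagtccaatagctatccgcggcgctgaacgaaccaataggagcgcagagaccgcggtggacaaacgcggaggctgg
The capitals hold 2 overlapping matches, 1 on each strand, beginning at positions -153 and -149 relative to the start. On either strand the motif was found in 1.57% of all genes with a promoter in the table, in 4 of 68 genes that fell (5.88%) and in 0 of 49 that rose. The 4 are Mcm5 and the histone genes H2ac10, H2ac12 and H2ac22.

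Of 12 measured H2ac genes, which encode histone H2A, 7 fell (12 of 24 probes), against 0.604% of all genes tested. The other 5 (H2ac1, H2ac4, H2ac8, H2ac18 and H2ac19) did not pass, with differences between -0.63 and 0.35, nor did second probes of H2ac10 and H2ac20. H2ac12 had log2 levels of 11.00, 12.86 and 12.85 at 144 h, against 12.61, 13.83 and 13.94 at 96 h, and H2ac6 had 13.09, 14.73 and 14.49 at 144 h, against 14.54, 15.58 and 15.62 at 96 h. The groups overlapped in both genes because the replicate 1 arrays of both times were low, while the pairs fell by 1.61, 0.97 and 1.09 for H2ac12 and by 1.45, 0.84 and 1.13 for H2ac6. The mean falls were 1.22 (limma adjusted p = 0.037) and 1.14 (limma adjusted p = 0.004). H2ac15, H2ac10, H2ac13 and H2ac22 fell by 1.20, 1.17, 1.12 and 1.09 at their most changed probes. These genes are near-identical copies, so a probe can read several of them and the gene names are uncertain. The 7 genes are therefore not separate pieces of evidence. None of the 12 probes passed without replicate 2 (limma adjusted p between 0.14 and 0.44) or without replicate 3. With no replicate block only the H2ac6 probe passed (limma adjusted p = 0.045). No H2bc, H3c or H4c probe fell past the test, and 1 H4c9 probe rose by 0.59. The promoter of H2ac12 is shown because it is the H2ac gene with the largest fall, with CCAAT boxes on either strand in capitals, from RefSeq, GRCm38.p6, chr13:22035594-22035893, minus strand.
H2ac12: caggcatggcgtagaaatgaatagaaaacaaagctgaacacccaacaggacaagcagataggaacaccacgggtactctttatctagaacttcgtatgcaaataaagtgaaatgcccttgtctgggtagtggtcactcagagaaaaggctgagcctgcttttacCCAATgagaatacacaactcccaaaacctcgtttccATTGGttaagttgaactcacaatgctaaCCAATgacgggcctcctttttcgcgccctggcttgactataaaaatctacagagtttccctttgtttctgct
The 3 matches begin at positions -86, -50 and -22 relative to the start. CCAAT was found in 41.1% of all genes with a promoter in the table, in 32 of 68 genes that fell (47.1%) and in 21 of 49 that rose (42.9%), and all 7 H2ac genes that fell, H2ac20 included, held it.

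Gap43, a growth-associated protein of axons that myoblasts express too, had log2 levels of 7.68, 7.66 and 8.25 at 144 h, against 8.78, 8.82 and 9.83 at 96 h. It fell by 1.28 (SE 0.17, 2.42-fold lower, limma adjusted p = 0.00018) with no overlap. In the authors' normalized table the Gap43 difference was -0.61. Aqp1, a water channel, had 9.12, 9.89 and 10.63 at 144 h, against 10.17, 11.06 and 11.78 at 96 h, and its pairs fell by 1.05, 1.17 and 1.16 (limma adjusted p = 0.0059), although the groups overlapped. Vgll2, a cofactor of TEAD factors in muscle, fell by 0.84, Stmn2, a microtubule regulator, by 0.64 and Twist2, a repressor of myogenesis, by 0.64. Klf4 fell by 0.67 and Krt14, a keratin, by 0.95, and these 5 genes were chosen after their values were seen.

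Asns, Trib3 and Phgdh, genes tied to amino acid supply, fell, by far most in replicate 1. Asns, asparagine synthetase, had log2 levels of 12.19, 12.64 and 12.68 at 144 h, against 14.28, 13.06 and 12.92 at 96 h, and the pairs differed by -2.08, -0.42 and -0.24. Trib3, a pseudokinase that is induced when amino acids are short, had 6.97, 7.46 and 7.52 at 144 h, against 9.81, 7.92 and 8.03 at 96 h. Its pairs differed by -2.84, -0.45 and -0.51. In both genes the replicate 1 array was the highest of the 96 h group and the lowest of the 144 h group.

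The mean falls were 0.91 for Asns (SE 0.20) and 1.27 for Trib3 (SE 0.28), each with a limma adjusted p of 0.022. Phgdh, the first enzyme of serine synthesis, had 9.83, 10.38 and 10.33 at 144 h, against 11.90, 11.15 and 10.70 at 96 h, and fell by 1.07 (SE 0.17, limma adjusted p = 0.0014). The pairs differed by -2.07, -0.78 and -0.37. Without replicate 1 the limma adjusted p was 0.62 for Asns, 0.47 for Trib3 and 0.078 for Phgdh. The differences were then -0.33, -0.48 and -0.58. Without replicate 2 the limma adjusted p was 0.19, 0.18 and 0.13, while the differences were larger, at -1.16, -1.67 and -1.22. Only 13 of all tested probes passed in that fit. Without replicate 3 Phgdh passed, and Asns and Trib3 did not. None of the other 4 enzymes named next passed without replicate 1 either. Mthfd2, Shmt2, Psat1 and Mthfd1l, enzymes of serine and folate metabolism chosen after their values were seen, had pair differences of -2.12, -1.71, -1.36 and -1.58 in replicate 1, and between -0.51 and -0.17 in the other replicates.

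**Figure D3:**
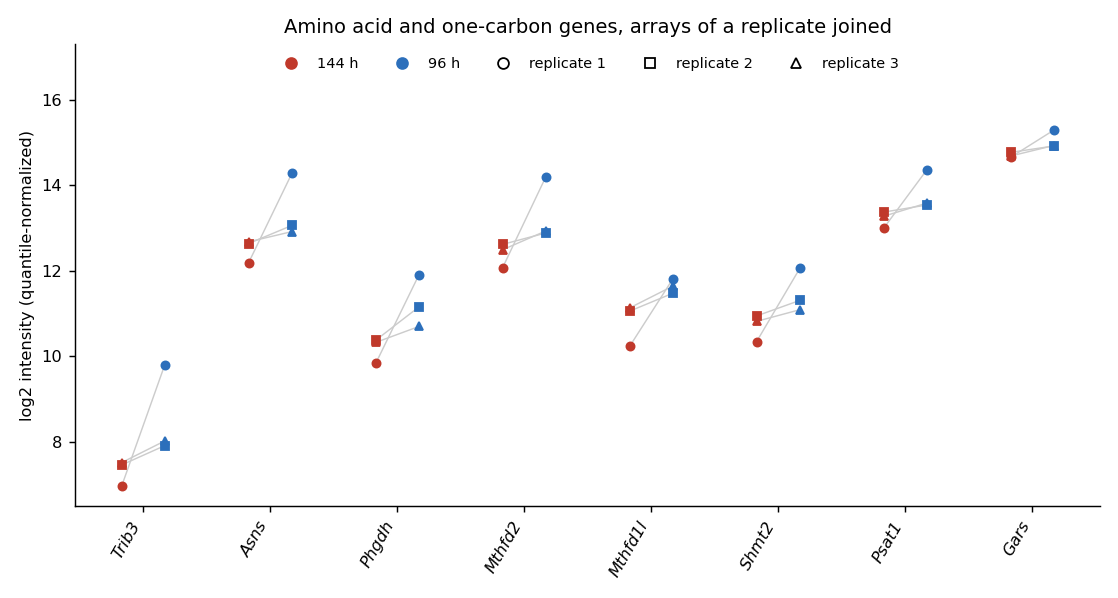
Quantile-normalized log2 intensity of 8 genes of amino acid and one-carbon metabolism, with 144 h arrays in red left of 96 h arrays in blue and a line joining the arrays of a replicate. In each of the 8 genes the replicate 1 array is the highest at 96 h and the lowest at 144 h, as for Trib3 with 9.81 at 96 h and 6.97 at 144 h.

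Of the 12 genes of the unfolded protein response, a list that includes Asns and Trib3, those 2 fell, none rose and 10 did not pass, against 0.604% of all genes lower. The list median was -0.19, and was -0.69, 0.05 and -0.01 in pairs 1, 2 and 3. Chac1 and Ddit3 had differences of -2.32 and -1.31 in replicate 1 and between -0.16 and 0.14 in the others. Hspa5, the main chaperone of the endoplasmic reticulum, had 0.28 (limma adjusted p = 0.74), and Atf4, which activates amino acid response genes, had between -0.25 and -0.06 at 3 probes. The promoters of Asns and Trib3 are shown because both hold a C/EBP-ATF-type motif, TGATGNAA, here in capitals on either strand. They come from RefSeq, GRCm38.p6, chr6:7693160-7693459 and chr2:152344011-152344310, both on the minus strand.
Asns: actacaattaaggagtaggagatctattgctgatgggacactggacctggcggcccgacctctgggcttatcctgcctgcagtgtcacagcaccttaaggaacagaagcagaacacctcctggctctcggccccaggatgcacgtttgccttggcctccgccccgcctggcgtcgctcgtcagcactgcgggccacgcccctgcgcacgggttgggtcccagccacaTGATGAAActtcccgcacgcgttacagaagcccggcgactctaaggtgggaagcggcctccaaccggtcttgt
Trib3: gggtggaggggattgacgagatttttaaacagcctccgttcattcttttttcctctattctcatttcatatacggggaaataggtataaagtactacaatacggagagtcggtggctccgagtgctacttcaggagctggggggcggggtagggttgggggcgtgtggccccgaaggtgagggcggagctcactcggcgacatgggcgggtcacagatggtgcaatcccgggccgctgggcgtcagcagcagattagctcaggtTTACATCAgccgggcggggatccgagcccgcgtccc
The match begins at position -23 relative to the start in Asns and at 14 in Trib3. The motif was found in 4.51% of all genes with a promoter in the table, in 5 of 68 that fell (7.35%) and in 2 of 49 that rose (4.08%). The 5 are Asns, Trib3, Gars (a tRNA synthetase that fell by 0.34), Kif2c (a mitotic kinesin) and Mcf2l (a guanine nucleotide exchange factor), and Phgdh, Psat1, Mthfd2, Shmt2 and Mthfd1l did not.

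The remaining lists held 1 call among them. Mmp2, a gelatinase, rose by 0.46 (SE 0.08, limma adjusted p = 0.0025), with levels of 14.59, 14.83 and 15.21 at 144 h, against 14.27, 14.25 and 14.72 at 96 h. The other 17 measured genes of the extracellular matrix did not pass, with a list median of 0.06. No gene passed among 13 of glycolysis, 17 of oxidative phosphorylation, 11 of fatty acid oxidation, 13 of calcium handling and excitation, 11 of proteolysis and atrophy, 9 of cholesterol synthesis and 4 of the interferon response. Their medians ranged from -0.12 for cholesterol synthesis to 0.12 for proteolysis and atrophy. In the cholesterol list the pair medians were 0.20, -0.30 and -0.40, so that replicate 1 went against the other pairs.

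**Figure D4:**
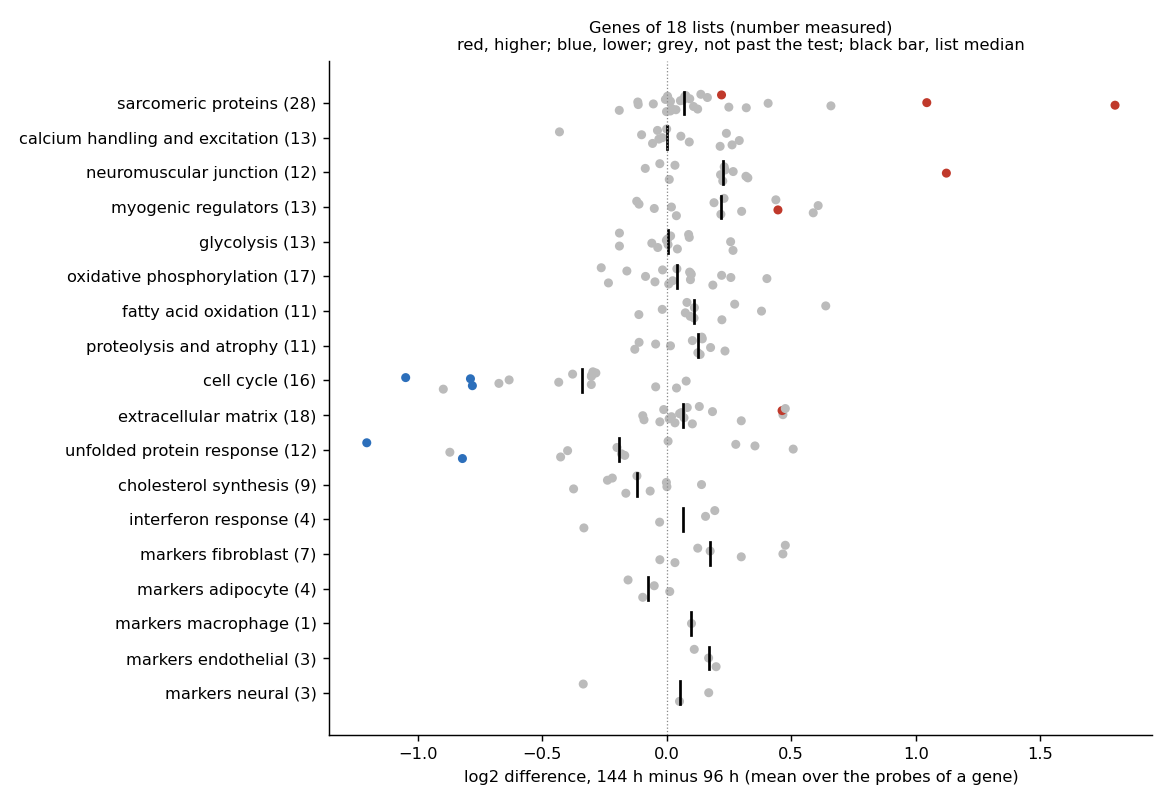
Log2 difference, 144 h minus 96 h, of each measured gene of 18 lists (mean over a gene's probes), with the list median as a black bar and genes with at least 1 probe past the test in red (higher) or blue (lower). The cell cycle list lies furthest to the left, with a median of -0.34 and 3 blue genes among 16.

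The probes that changed had no single earlier course. Of the 90 probes that rose, 29 had been higher and 24 lower at 48 h than at 0 h, and 37 had not passed that test. Of the 107 that fell, 17 had been higher, 31 lower and 59 not past the test. Over all tested probes the shares were 13.3% higher and 14.5% lower at 48 h.

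The step of 144 h against 96 h was compared with that of 96 h against 48 h in 1 test of their difference. It passed at 39 probes (0.131%), at 36 with the later change below the earlier and at 3 with it above. Both steps share the 96 h arrays. Myl2 had 1.04 in the later step and 1.13 in the earlier, Hs3st1 had 1.36 in both, and Igfbp2 had -1.23 and -0.84, with no difference between steps past the test. Mcm5 had -1.05 and -1.20, and Ccnd1 -1.03 and -0.74. Tpm3, at its most changed probe, had 0.89 and 2.17, a difference of -1.28 (limma adjusted p = 0.013). Car3 had 1.73 and 0.35, a difference of 1.38 (limma adjusted p = 0.013). With median scaling neither gene passed (limma adjusted p = 0.11 for Car3 and 0.25 for Tpm3), nor did either with no replicate block, in the fit of 9 arrays or without any 1 replicate. Fez1, an adaptor of kinesin transport chosen after its values were seen, had 0.93 and 2.36 at the probe where the steps differed most clearly, a difference of -1.44 (limma adjusted p = 0.0069). Cox7a1, a muscle subunit of cytochrome oxidase, and Pvalb, parvalbumin of fast fibres, had 0.40 and -0.43 in the later step against 2.04 and 1.06 in the earlier one (limma adjusted p = 0.0096 and 0.013 for the difference). Both were chosen after their values were seen. With median scaling Fez1, Cox7a1 and Pvalb did not pass (limma adjusted p = 0.11, 0.071 and 0.14). Nor did they in the fit of 9 arrays or without replicate 2 or replicate 3.

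**Figure D5:**
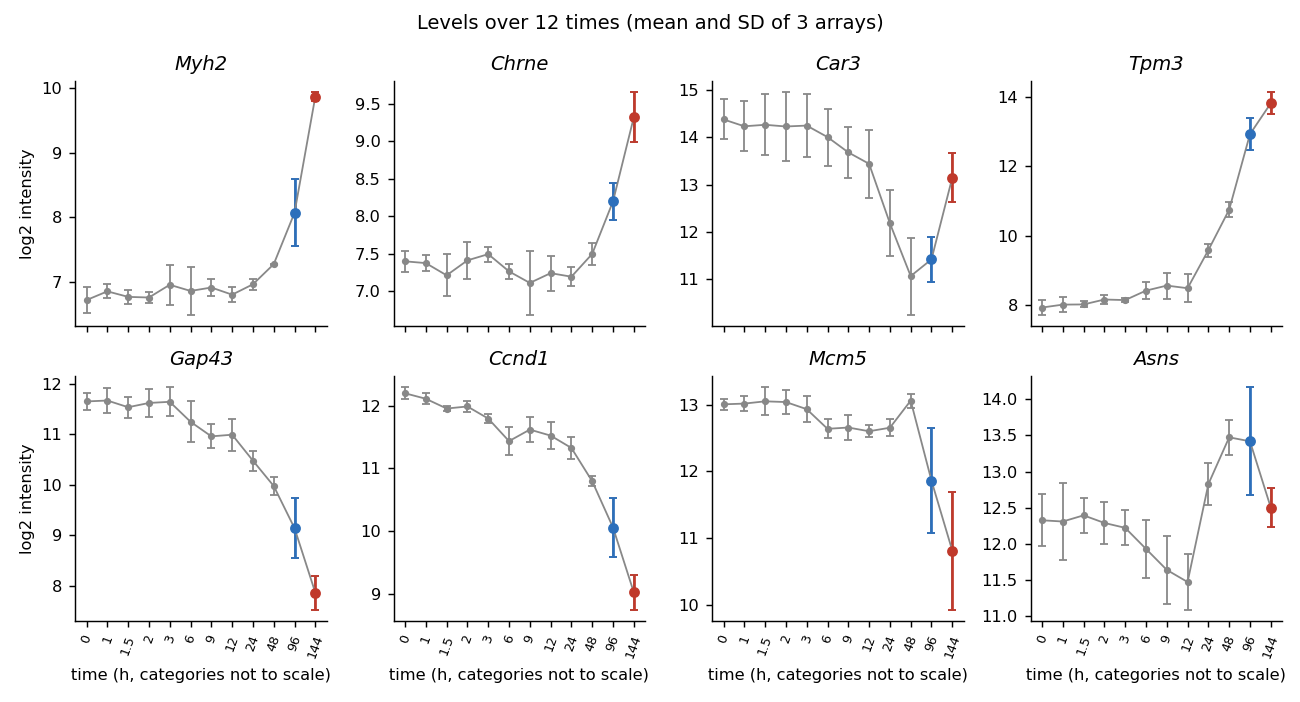
Mean log2 intensity with SD (n = 3 arrays) at 12 times, drawn at equal spacing, for 8 genes at their most changed probe, with 96 h in blue and 144 h in red. Car3 has its lowest mean at 48 h and its 144 h mean is below that of 0 h, while Mcm5 has the widest SD bars at 96 h and 144 h.

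The calls did not rest equally on the 3 pairs. Without replicate 1, 207 probes passed, 112 of them among the 197. Without replicate 2, 13 passed, and without replicate 3, 26. Of the 30 named genes, 6 passed without each replicate in turn, namely Myh2, Car3, Eef1a2, Hs3st1, Gap43 and Igfbp2. Of these, Car3 and Igfbp2 did not pass with no replicate block (limma adjusted p = 0.19 and 0.16). Probes called in 2 replicates were then read in the replicate left out. The 106 called higher without replicate 1 had a median difference of 0.40 there, with 84.9% above 0 against 45.4% of all tested probes, and the 101 called lower had one of -0.64, with 89.1% below 0 against 54.5%.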

How the data were processed

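RNA of 36 cultures was read on Illumina mouse whole-genome BeadChips. The deposited raw table holds 1 summary intensity for each of 46019 probes on each array, and the deposited normalized table holds log2 values that the authors made. Their normalization method is not given in these sources. Raw intensities were corrected by normexp with an offset of 50, quantile normalized and put on the log2 scale. Probes above the array median on at least 3 arrays were kept (29812 kept, 16207 removed). One limma model over 36 arrays (limma 3.58.1, R 4.3.3), with the time and the replicate number as terms and an intensity trend, gave moderated tests with Benjamini-Hochberg adjustment at 0.05. The p-values rest on 1 residual variance per probe, pooled over all 36 cultures, and not on the spread of the 6 compared cultures alone. That spread could differ with time. The SD of Mcm5 was 0.08 in the 0 h group and 0.89 in the 144 h group, while that of Myh2 was 0.21 and 0.07. A variance taken only from the 9 latest arrays gave 16 calls in place of 197.

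Probes were tied to genes where their normalized values equalled those of 1 annotated probe on all 36 arrays. Of 46019 probes, 28471 had 1 gene, 10 had several and 17538 had none named here. The genes named are the 12 largest rises and 12 largest falls past the test that had the same sign in every pair and a raw intensity above the array median on all 6 arrays, at 1 probe a gene, plus up to 4 called members of each list. Members and lists were chosen with earlier results of these data known. Deviations from the group means of arrays with the same replicate number at 144 h and 96 h correlated at 0.399, 0.464 and 0.102, so the numbers were taken as pairs. The fit was also run on simulated data that gave a probe the same spread at all times. That run could not show the effect of a spread that differs with time. Motifs were searched on both strands of the RefSeq windows. Alternatives covered the normalization, filter, block, arrays fitted and replicates left out.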

Additional observations from a re-analysis of the deposited data

Results flagged for a closer look

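The test of the difference between the 2 steps (144 h against 96 h, and 96 h against 48 h) passed at 39 probes, 36 with the later step below the earlier one. Among the named genes it passed for Car3, where the later step exceeded the earlier by 1.38 log2 units, and for Tpm3, where the difference was -1.28. Under 19 alternatives the Car3 difference lay between 1.12 and 1.70 and passed in 11, and the Tpm3 difference lay between -1.51 and -0.96 and passed in 12. Both calls were lost with median scaling, with no replicate block, in the fit of 9 arrays, without each replicate in turn and without the replicate 1 array of 96 h, and that of Car3 also without the replicate 2 array of 96 h. A second Car3 probe had a difference of 1.34 that did not pass (limma adjusted p = 0.24). Groups of 3 arrays were too small for a test of single outlying arrays.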

How the results depend on the processing

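All 197 called probes, the 30 named genes among them, kept their sign under each alternative that could be run for them (20 for 181 probes and 19 for 16, which the stricter filter removes), while 3 probes (Myh2, Hs3st1 and Gap43) passed under each, and the cause of the lost calls was not tested. The 144 h against 96 h count of 197 was 351 in the authors' normalized table, 118 with median scaling, 75 with only the 6 arrays of these times and 16 with only the 9 arrays from 48 h on. With no replicate block it was 36, and 12 of the 30 named genes passed. That block is 1 offset per replicate number over all 12 times. Only the 6-array fit pairs the 96 h and 144 h arrays by themselves. Leaving out single arrays or replicates gave 13 to 321 probes, 321 without the replicate 1 array of 96 h. The 96 h against 48 h count was 1022 with no replicate block, 1093 in the 9-array fit and 980 to 2248 with replicates left out. The count for the difference of the steps was 134 in the authors' table, 64 with no background correction, 24 with cyclic loess, 7 with no replicate block, 3 with median scaling, and 1 to 98 with replicates left out. In the 9-array limma fit that count was 0, with 1952 at an unadjusted p below 0.05. The count of probes bounded within 1 log2 unit, 29235, was 45460 with no filter on dim probes, 17948 with a stricter one and 28539 to 29503 with replicates left out. With median scaling the median difference was 0.0571 over all tested probes, 0.0857 over probes higher and 0.183 over probes lower at 48 h than at 0 h, and 0.0384 over the rest. It was then 0.114 for probes higher at 24 h and 48 h, 0.0653 for those higher at 48 h alone, 0.103 for those higher at 1 h or 1.5 h, 0.103 and 0.177 for those higher and lower at 48 h than at 24 h, and 0.0571 and 0.129 for probes of middle and of highest intensity. With cyclic loess it was 0.00658 over all probes, 0.00895 over the dimmest, 0.00619 over those of middle intensity and -0.00043 over probes not called at 48 h. The dimmest probes had -0.0167 with a stricter filter. With replicates left out, probes lower at 48 h than at 24 h had 0.0113 to 0.134, those higher at 1 h or 1.5 h had -0.077 to 0.062, and the difference on the first component was -5.91 to 6.60. The 6-array fit holds no 48 h arrays and gives no value for the earlier step. The 3 arrays a group limit the precision, and probes at the top of the intensity range cannot show a rise.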
